A study of Mus musculus with 2 samples.

Results

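The immediate early response genes Ier2, Ier3, Ier5 and Ier5l and the SERTA domain genes Sertad1, Sertad2 and Sertad3 were examined for binding of KMT2D, an enzyme that methylates histone H3 at lysine 4. They are 7 of 21774 protein-coding genes and were chosen by name. Every peak whose summit lay inside one of these genes or within 50 kb of it was taken, which gave 19 of the 3738 deposited peaks. The cells were HT22, an immortalised line from mouse hippocampus, wild-type in genotype and labelled as a wild-type clone, sampled at 70% confluency. The 2 groups were the KMT2D ChIP (antibody Millipore ABE1867) and its input control without antibody, each a single library, so no value has a replicate check. Cells with the catalytic SET domain deleted, which the series describes too, were not used here. A list of peaks measures no RNA, so the hippocampal label could not be checked by expression. Within 50 kb, 2 of 4 progenitor, 0 of 5 neuronal and 0 of 4 glial genes had a summit, beside 24.9% of all protein-coding genes. These lists are too short to say anything of the cell type: the exact one-sided 95% binomial limits on the counts of 0 are 45.1% and 52.7%, covering counting error only.

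KMT2D (also called MLL4) works in a large complex and is best known for mono-methylating lysine 4 of histone H3 at enhancers, which are regulatory elements that can lie far from the start of the gene they serve. Immediate early genes are transcribed within minutes of a stimulus such as serum or neuronal activity, without new protein synthesis. IER proteins are among their products, and SERTAD proteins are small nuclear cofactors that act on E2F and DP transcription factors and on cyclin-dependent kinase signalling.

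The positions of the peaks relative to gene starts are easiest to follow on the sequences. The stretches printed here run from 250 bases before to 50 bases after a start, 5′ to 3′ on the strand of the gene, from RefSeq on GRCm38.p6, the assembly that mm10 also names. Entries matched 6 of the 7 genes, with 2 starts for Sertad2, and Ier2 had none. The first 3 sequences are the starts of Sertad2, Ier5's neighbour Gm9530 and Ier5l's neighbour Ptpa that a peak among the 19 covers in part, and capitals mark the bases inside the deposited peak interval. Peaks of the 19 also cover all 300 bases of the window at Mdc1 and 51 bases of one at Ppp1r18, both beside Ier3, which are not printed. The 3 printed are the first start of Sertad2 (chr11:20542916-20543215, plus strand, 102 bases in the peak), the start of the long non-coding RNA gene Gm9530 beside Ier5 (chr1:155083215-155083514, minus strand, 281 bases) and an internal start of Ptpa beside Ier5l (chr2:30441603-30441902, plus strand, 227 bases).

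Sertad2 first start: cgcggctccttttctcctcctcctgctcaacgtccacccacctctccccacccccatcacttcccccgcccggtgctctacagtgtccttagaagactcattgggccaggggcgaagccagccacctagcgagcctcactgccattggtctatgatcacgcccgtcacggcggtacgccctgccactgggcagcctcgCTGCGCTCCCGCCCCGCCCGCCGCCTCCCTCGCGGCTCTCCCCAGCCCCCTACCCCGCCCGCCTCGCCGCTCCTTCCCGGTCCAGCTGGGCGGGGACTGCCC
Gm9530 start: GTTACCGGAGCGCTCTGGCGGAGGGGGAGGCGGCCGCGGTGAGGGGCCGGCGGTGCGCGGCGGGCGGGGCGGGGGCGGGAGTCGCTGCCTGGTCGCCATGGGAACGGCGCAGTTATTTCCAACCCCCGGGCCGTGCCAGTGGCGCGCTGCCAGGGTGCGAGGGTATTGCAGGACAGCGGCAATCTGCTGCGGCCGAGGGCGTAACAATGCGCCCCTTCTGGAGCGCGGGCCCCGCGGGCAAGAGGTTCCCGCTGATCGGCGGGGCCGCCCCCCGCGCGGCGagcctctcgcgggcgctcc
Ptpa start: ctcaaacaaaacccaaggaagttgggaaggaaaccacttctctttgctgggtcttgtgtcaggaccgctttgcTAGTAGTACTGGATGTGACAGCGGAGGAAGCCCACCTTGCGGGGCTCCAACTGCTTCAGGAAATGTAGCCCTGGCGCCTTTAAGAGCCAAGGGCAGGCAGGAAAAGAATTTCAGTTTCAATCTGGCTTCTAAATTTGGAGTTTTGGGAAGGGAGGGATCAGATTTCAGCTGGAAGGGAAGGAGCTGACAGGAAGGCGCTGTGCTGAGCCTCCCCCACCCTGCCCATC

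The second start of Sertad2 (chr11:20631727-20632026, plus strand) is shown because the peak with the most ChIP fragments of the 19 ends just before this window. Its capitals mark the GC box GGGCGG on either strand.

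Sertad2 second start: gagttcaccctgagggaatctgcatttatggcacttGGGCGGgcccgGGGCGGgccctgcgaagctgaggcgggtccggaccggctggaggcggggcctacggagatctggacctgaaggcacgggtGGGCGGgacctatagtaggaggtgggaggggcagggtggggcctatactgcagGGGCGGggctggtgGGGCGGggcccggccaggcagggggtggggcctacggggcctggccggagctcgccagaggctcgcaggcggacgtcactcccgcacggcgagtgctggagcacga

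The starts of Ier3 (chr17:35821463-35821762, plus strand), Ier5 (chr1:155099587-155099886, minus strand) and Ier5l (chr2:30474150-30474449, minus strand) are among those that no peak overlaps. Those of Sertad1 and Sertad3, not printed, are not overlapped either. Capitals below mark CCAAT on either strand, which occurs at 2 places in each of the 3 windows. It also occurs at 2 places at Sertad3 and at the first start of Sertad2, which a peak covers in part. Sertad1 has no match.

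Ier3 start: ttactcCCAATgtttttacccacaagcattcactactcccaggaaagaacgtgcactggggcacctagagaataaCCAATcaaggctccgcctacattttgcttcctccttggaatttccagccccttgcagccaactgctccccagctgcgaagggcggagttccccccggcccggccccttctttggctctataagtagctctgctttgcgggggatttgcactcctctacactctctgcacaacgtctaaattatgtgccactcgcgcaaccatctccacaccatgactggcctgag
Ier5 start: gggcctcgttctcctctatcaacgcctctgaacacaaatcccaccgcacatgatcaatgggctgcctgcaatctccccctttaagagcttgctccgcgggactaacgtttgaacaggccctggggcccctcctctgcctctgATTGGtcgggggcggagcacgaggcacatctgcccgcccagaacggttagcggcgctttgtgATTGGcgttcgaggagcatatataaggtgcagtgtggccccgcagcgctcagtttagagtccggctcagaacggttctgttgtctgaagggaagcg
Ier5l start: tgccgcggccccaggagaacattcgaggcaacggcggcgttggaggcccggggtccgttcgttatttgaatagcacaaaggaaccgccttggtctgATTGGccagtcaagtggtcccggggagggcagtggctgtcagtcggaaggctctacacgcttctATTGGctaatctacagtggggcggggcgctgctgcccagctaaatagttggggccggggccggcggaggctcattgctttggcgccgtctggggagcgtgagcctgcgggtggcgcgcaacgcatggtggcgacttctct

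KMT2D peaks lay around all 7 genes. Each gene had at least 2 summits inside it or within 50 kb, where 24.9% of all protein-coding genes had 1 or more. The genes were proposed with these peaks known, so nothing is read from that contrast. Of the 19 summits, 1 was inside a listed gene, at Sertad2, while each of the other 6 genes is at most 3525 bp long. Of all 19, 8 lay within 10 kb of the nearest listed gene and 8 lay more than 20 kb away. A summit within 2 kb of either end was found at 2 of 7 genes, Sertad1 and Sertad2, where the share over all protein-coding genes was 5.08%. Among the 6 genes with a listed start, only Sertad2 had a summit within 2 kb of it, against 4.72% of 17492 protein-coding genes. The same count held for 500 bp, 1 of 6 genes against 3.65%. The summit just inside the 50 kb limit lay 45252 bp from Ier2 with a fold of 3.91, and the next beyond it lay 56780 bp from Ier3 with a fold of 4.07.

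**Figure D1:**
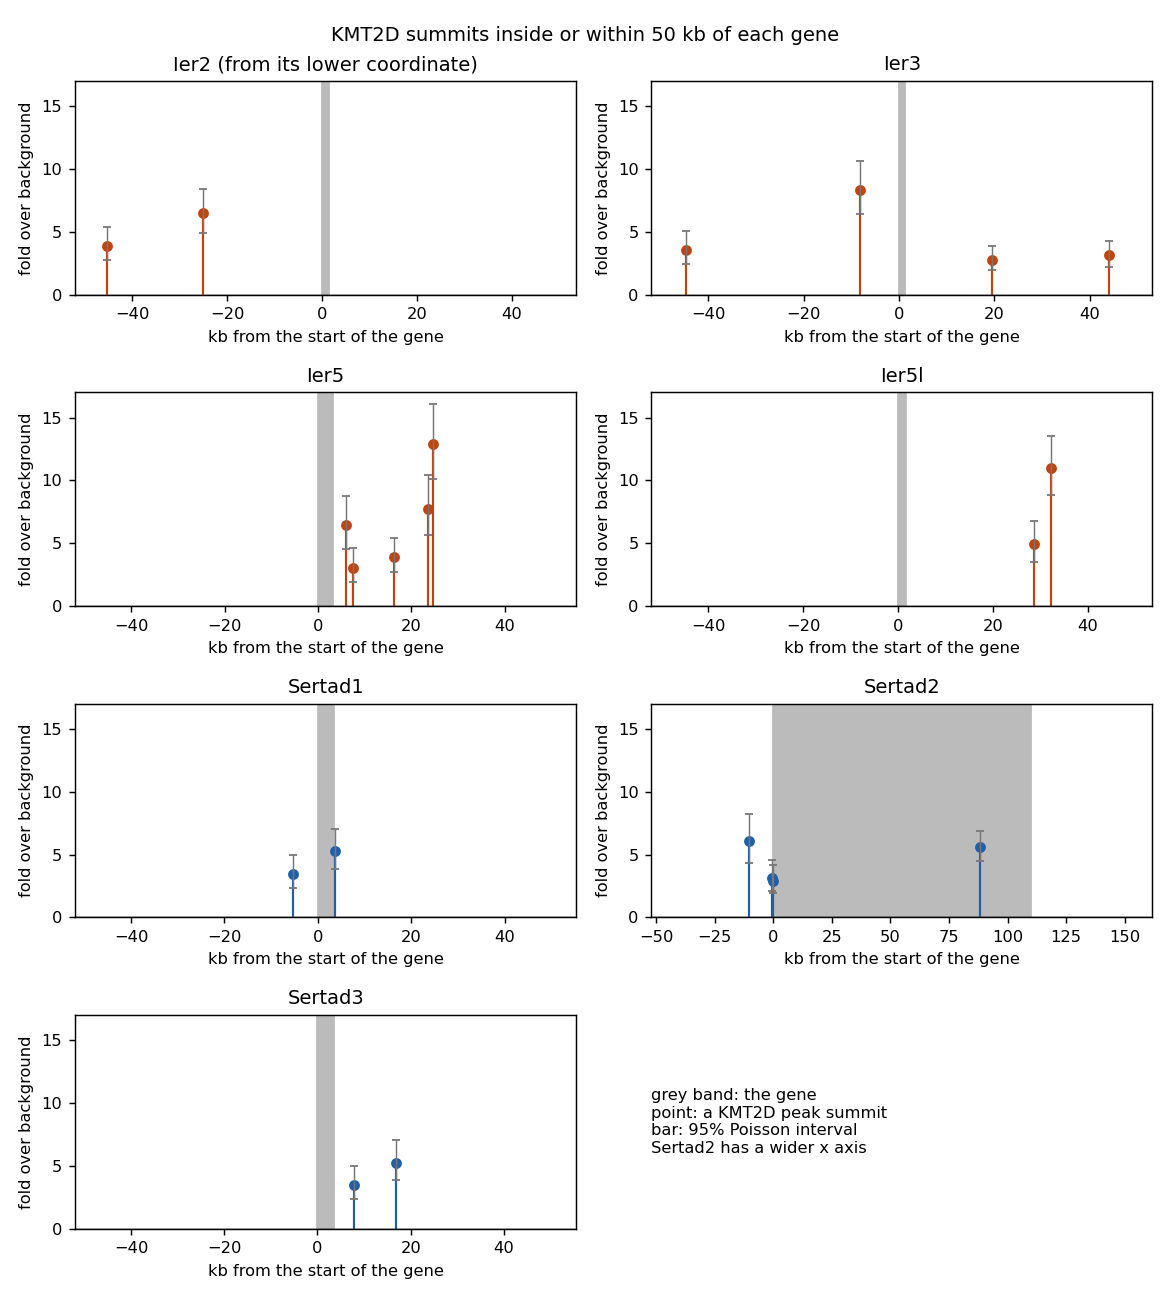
Position of each KMT2D summit along the direction of transcription (x axis, kb from the start of the gene, or for Ier2 from its lower coordinate) and its fold over background (y axis), 1 panel a gene, with the gene as a grey band and 95% Poisson intervals as bars. All 5 summits of Ier5 and both of Ier5l lie past the end of the gene, and Sertad2 is the gene with summits at its start.

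The strength of the peaks is given as the fold of ChIP over background at the summit, the authors' own value. Its 95% Poisson interval rests on the ChIP fragments behind it, with the background held fixed. It covers counting error of the ChIP library only. The 19 folds ran from 2.78 to 12.9 with a median of 4.94, and the whole list ran from 1.07 to 23.5 with a median of 4.45. Of the 19 peaks, 10 were above the median of the list and 7 were at or above its 75th percentile of 5.75. The 13 summits around IER genes had a median fold of 4.94 and a highest of 12.9, and the 6 around SERTAD genes a median of 4.37 and a highest of 6.04. The peaks of fold 10 or more numbered 2 of 19 and made up 2.43% of the whole list. They lay 21321 bp past the end of Ier5 and 30715 bp past that of Ier5l, the latter inside Ptpa. The 6 summits nearer another protein-coding gene all lay around IER genes. Because the genes were proposed with these peaks known, nothing is read from these fold contrasts.

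**Figure D2:**
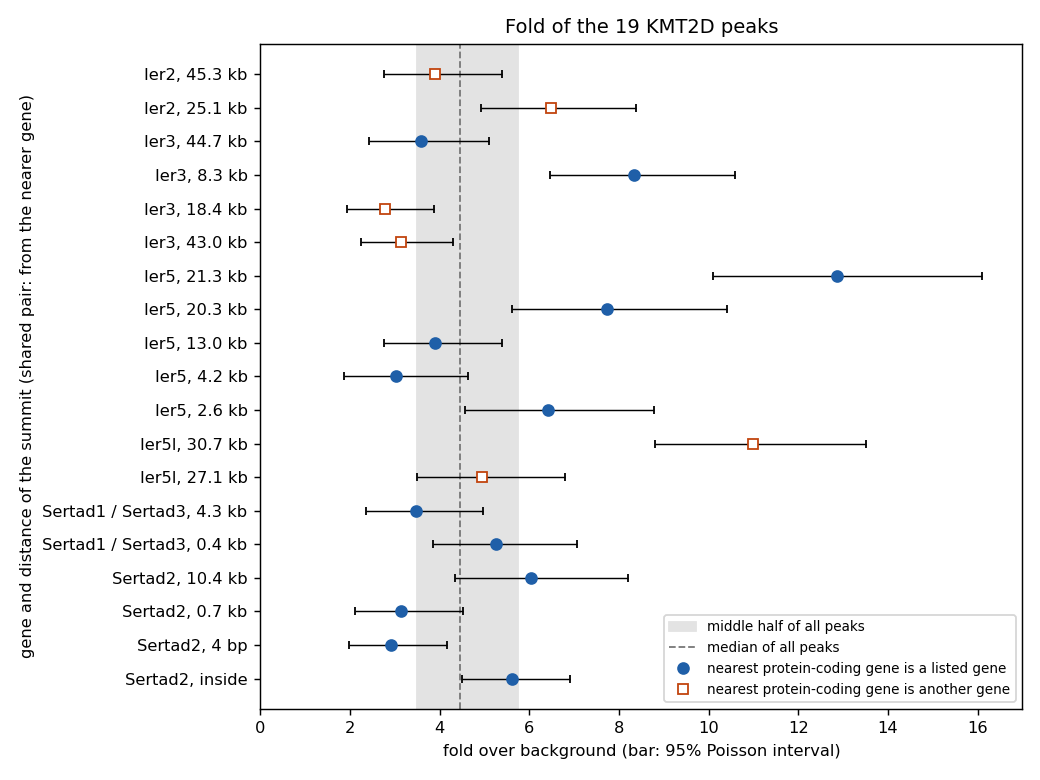
Fold over background (x axis) of the 19 peaks with 95% Poisson intervals, labelled by gene and by the distance of the summit from it, against the median (4.45) and the middle range (3.5 to 5.75) of all peaks. Filled points are the 13 summits whose nearest protein-coding gene is a listed gene, and open squares the 6 that are nearer another gene. The peaks of Ier5 at 12.9 and Ier5l at 10.99 stand to the right of the rest.

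Ier5 had the densest set of summits. It encodes an immediate early nuclear protein that binds the heat shock factor HSF1 and the phosphatase PP2A, and it lies on chromosome 1 from 155096367 to 155099636. All 5 of its summits lay past its end, over 18.7 kb. Moving away from the gene, the first, 2621 bp past the end, had a fold of 6.42 (interval 4.57 to 8.79) from 37 fragments over a background of 4.92. The next, at 4202 bp, was the weakest of the 5 at 3.02 (1.88 to 4.63), with 19 fragments. The summit at 12989 bp had a fold of 3.91 (2.75 to 5.39) and lay 114 bp before the start of Gm9530, in the GC-rich stretch printed above, of which the peak covers all but the last bases. Farther out a pair of summits 1035 bp apart carried the strongest signal. Of these, the summit at 20286 bp had a fold of 7.73 (5.62 to 10.4) and that at 21321 bp a fold of 12.9 (10.1 to 16.1), from 73 fragments over 4.76. That last peak, from 155074850 to 155075243, ranked 15 of 3738 by fold. Its interval overlapped that of its neighbour and none of the other 3.

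The Ier5 peaks also had no other summit of the list within 1 Mb. The next summit was 1439.4 kb away on one side and 1522.0 kb on the other, where the median gap between neighbouring summits in the list was 129.0 kb and 17% of gaps were over 1 Mb. Ier5 was the nearest protein-coding gene to all 5, with long non-coding RNA genes nearer to 3 of them. At least 5 summits within 50 kb were found at 0.588% of all protein-coding genes, and at 0.342% of the 4973 genes that, like Ier5, are at most 5 kb long. Runs of 5 summits in 18.7 kb or less were found at 18 separate places in the list, the one at Ier5 included. Only 2 groups of summits as compact as this, again with Ier5 counted, had no other summit within 1 Mb on either side. The run length was the span of the Ier5 summits themselves. The 5 kb class, gaps and runs were chosen after the values were seen, and the genes with these peaks known. Nothing is therefore read from these shares and counts.

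**Figure D3:**
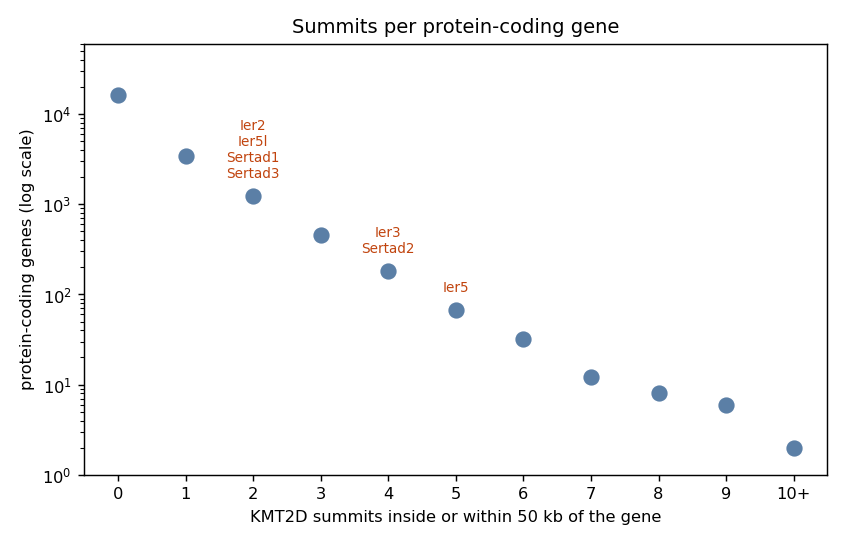
Number of protein-coding genes (y axis, log scale) by the number of KMT2D summits inside the gene or within 50 kb (x axis, with 10 or more joined), with the 7 genes named above their class. Ier5 has 5 summits, a class of 68 genes, and 16346 genes have none.

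Ier5l, a relative of Ier5 on chromosome 2 from 30472631 to 30474199, had 2 summits, both past its end and both inside another gene. The stronger, 30715 bp past Ier5l, had a fold of 10.99 (8.81 to 13.5) from 86 fragments over 6.92 and ranked 44 of 3738. It lay 63 bp after the start of Ptpa printed above, which is internal to the gene: the summit was 5891 bp from the nearest end of Ptpa, which encodes an activator of the phosphatase PP2A. The peak covers most of that window, where CpG is sparse: the ratio of observed to expected CpG was 0.241, lower than at the starts of Ier5l (0.885) and Gm9530 (1.01), and the median over all 32851 starts in the table was 0.384. The second summit, 27129 bp past Ier5l and also inside Ptpa, had a fold of 4.94 (3.5 to 6.79), an interval that did not overlap that of the first.

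Ier3 encodes an early response protein known for its part in cell survival and lies on chromosome 17 from 35821713 to 35822911. It had 4 summits. The strongest lay 8276 bp before its start, with a fold of 8.34 (6.46 to 10.6), 65 fragments over 6.92 and a rank of 237, and Ier3 was its nearest gene of any kind. The other 3 had folds of 3.58 (2.42 to 5.11) at 44736 bp before the start, 2.78 (1.94 to 3.87) at 18391 bp past the end and 3.15 (2.24 to 4.31) at 42960 bp past the end. None of their intervals reached that of the strongest. The summit at 44736 bp lay nearer a long non-coding RNA gene, with an end 1550 bp away. Both summits past the end were at starts of other genes. The summit of fold 2.78 lay 196 bp before the start of Mdc1, which encodes a mediator of the DNA damage response, and that of 3.15 lay between starts of Ppp1r18, 276 bp after one and 257 bp before the next.

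Ier2, on chromosome 8 from 84661331 to 84662852, encodes a nuclear protein made early after growth factor stimulation. Its 2 summits lay on the same side, at 25092 and 45252 bp. They had folds of 6.49 (4.93 to 8.39, 56 fragments) and 3.91 (2.75 to 5.39, 35 fragments), with overlapping intervals. Both were inside Cacna1a, which encodes the pore-forming subunit of a neuronal calcium channel, so neither peak had Ier2 as its nearest gene.

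Sertad2, also known as TRIP-Br2, encodes an E2F cofactor that in fat cells also acts on lipid breakdown. At 109858 bp it is by far the longest of the 7 genes (chromosome 11, 20543166 to 20653023) and has starts 88811 bp apart. Of its 4 summits, 3 lay within 1 kb of a start. At the first start, summits lay 4 bp and 679 bp upstream and were weak, with folds of 2.91 (1.97 to 4.17, 28 fragments over 8.95) and 3.15 (2.11 to 4.53, 27 fragments over 7.90). The summit of fold 2.91 falls within the capitals of the first sequence above. At the second start, the summit 467 bp upstream had a fold of 5.60 (4.50 to 6.90). It carried 87 fragments, the most of the 19, over a background of 14.7, the highest of the 19. Its interval did not overlap that of the summit at 4 bp and only just met that at 679 bp. The strongest by fold lay 10386 bp before the first start, at 6.04 (4.34 to 8.20) from 39 fragments over 5.62.

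**Figure D4:**
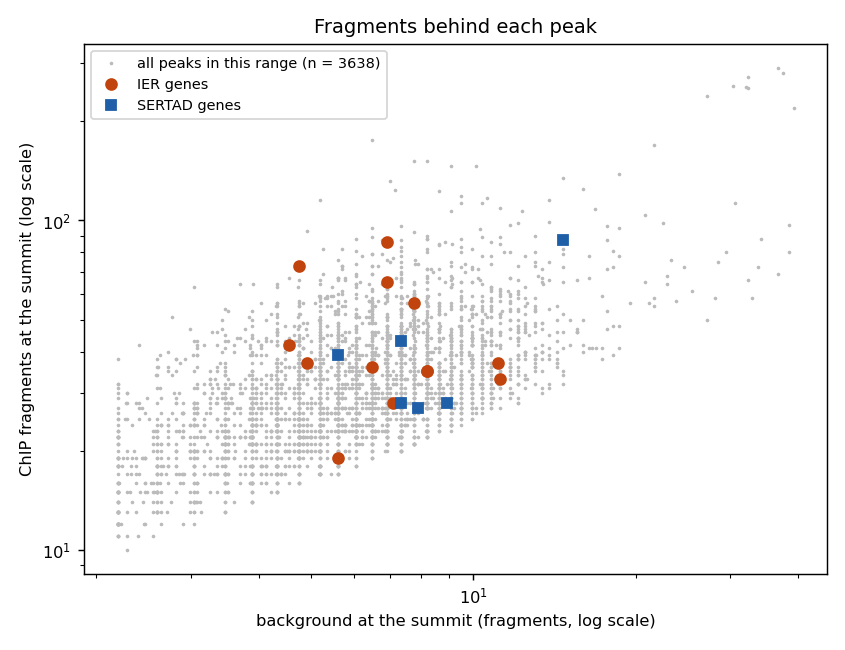
ChIP fragments (y axis, log scale) against background (x axis, log scale) at each summit, for 3638 peaks with a background under 40 fragments and under 300 ChIP fragments (grey) and the 19 peaks around IER (circles) and SERTAD genes (squares). The Sertad2 summit at 87 fragments lies to the right, at a background of 14.7, and the strongest Ier5 peak (73 fragments) to the left, at 4.76.

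Sertad1 and Sertad3 are neighbours on chromosome 7 and shared their 2 summits. Sertad1 (27486953 to 27490316) encodes a cofactor that binds CDK4 and E2F-DP, and Sertad3 (27473840 to 27477364) encodes a protein that binds replication protein A. The stronger summit lay 390 bp past the end of Sertad1, with a fold of 5.27 (3.85 to 7.06) from 43 fragments over 7.35, and 13342 bp past the end of Sertad3. The other lay between the genes, 4279 bp past the end of Sertad3 and 5310 bp before the start of Sertad1, at 3.47 (2.35 to 4.97) from 28 fragments over the same background. An end of a long non-coding RNA gene lay nearer to it, at 1122 bp. The intervals overlapped, and the difference was not tested.

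No peak was called at the starts of Ier3, Ier5, Ier5l, Sertad1 and Sertad3, which holds only at the depth of these libraries. The weakest fold called depended on the background: it was 3.07 at 2 to 4 fragments, 2.50 at 6 to 8 and 2.10 at 12 to 16. The list gives no background where no peak was called, so the limit at these starts is not known, and weaker enrichment there may have gone uncalled. None of the 19 peaks had a background above 20 fragments, and none lay within 500 bp of a small RNA gene.

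Related genes were looked up in the same way: SERTA domain relatives, partners and targets of IER and SERTAD proteins, and upstream factors of immediate early genes. Of 44 such genes, 20 (45.5%) had a summit inside or within 50 kb, where 24.9% of all protein-coding genes did, and 6 (13.6%) had one within 2 kb of an end, where 5.08% did. The list was drawn up with earlier results of these data known, so nothing is read from these contrasts. Both SERTA domain relatives had summits within 50 kb. Sertad4 had 3, of which 1 lay 38 bp from an end of the gene with a fold of 4.50 (2.86 to 6.77), and Cdca4 had 2, neither at an end. Among 33 partners and targets, 15 had a summit within 50 kb and 4 had at least 1 at an end. Mcl1, which encodes a survival factor, had 7 summits within 50 kb, 2 of them at an end, with folds of 4.55 (2.90 to 6.85) and 2.92 (2.07 to 4.01). The others were the histone acetyltransferase gene Ep300 (3.03, 1.95 to 4.52), the retinoblastoma relative Rbl1 (2.81, 1.94 to 3.96) and the cell cycle kinase gene Cdk4 (2.79, 2.0 to 3.80). Hsf1, whose product binds Ier5, had 3 summits within 50 kb and none at an end. Of 9 upstream factors of immediate early genes, 3 had a summit within 50 kb, and Mrtfb, a coactivator of SRF, had one 543 bp inside an end (4.09, 2.70 to 5.97).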

How the data were processed

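KMT2D ChIP and input DNA from wild-type HT22 cells were sequenced, 1 library each. The submitters' processing notes name Bowtie2, Picard, MACS2 and mm10, without versions or settings. The authors deposited 1 peak list. For each peak the deposited columns give a fold (ratio) of ChIP over background, p-value and q-value as −log10 (lowest q 1.32), a summit offset, and a score that was not used. Fold and p-value were solved for whole ChIP fragments n and background b, taking the fold as (n + 1)/(b + 1) and a Poisson p-value, the form MACS2 uses. The −log10 p was matched within 0.001 for 3690 of 3738 peaks (98.7%) and for all 19 described. The solver recovered 500 of 500 peaks simulated in that same form, which checks its arithmetic only. Genes were 49595 of 49997 RefSeq entries of GRCm38.p6, those on the main sequence of chromosomes 1 to 19, X and Y. Positions count from 1. Python 3.11.15 with pandas 2.3.3 and scipy 1.17.1 was used. With single libraries no test across samples was possible. The genes, gene lists and motifs were chosen with earlier results of these data known; the 5 kb length class, gaps and runs of summits were chosen after values were seen. Named were the 7 genes, each summit within 50 kb, its nearest protein-coding gene where different, and related genes with a summit at an end. Cdca4, Hsf1 and Gm9530 were added afterwards. Alternatives changed the window, peak threshold, summit rule and assignment of peaks.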

Additional observations from a re-analysis of the deposited data

How the results depend on the processing

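With 1 library of each kind, no replicate could be left out. No paired analysis was possible because ChIP and input form a single pair, which the peak list joins. All 7 genes had a summit in the window when it was widened to 100 kb, with peaks placed by any base of their interval, leaving out peaks with a background over 20 fragments or a small RNA gene nearby, and in the more significant part of the list (−log10 q of 8.26, the list median, or more). The number was 5 with a 20 kb window, with only the peaks of high fold (5.75 or more, the 75th percentile), and with peaks given to their nearest protein-coding gene, where Ier2 and Ier5l had none. The 19 summits became 11 with the 20 kb window, 10 in the more significant part and 7 among peaks of high fold. The 2 genes with a summit at an end became 4 with a 5 kb end window, 1 in the more significant part and 0 among peaks of high fold. The median fold of 4.94 became 7.73 among peaks of high fold, by construction. It was 6.46 in the more significant part, a choice that also favours high folds. With the 20 kb window it was 3.91, below the median of 4.45 over all peaks. Under the other settings it lay between 4.67 and 5.27. Given only its own nearest peaks, the highest fold of Sertad3 was 3.47 in place of 5.27. The interval of each fold covers counting error of the ChIP library only.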

Other observations

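The 7 start windows of these genes (6 genes, with Sertad2 counted at both starts) shared some sequence features. GGGCGG on either strand was in 7 of 7, and in 35.7% of all 32851 start windows of the same length in the table. At least 5 copies were found at both starts of Sertad2 and at 2.71% of all starts. CCAAT on either strand occurred at 2 or more places in 5 of 7 windows, those of Ier3, Ier5, Ier5l, Sertad3 and the first start of Sertad2, against 11.7% of all. The same 5 windows are those with CCAAT at 1 place or more, which 37.4% of all starts had. TGACG, the core of the CREB element, was at both starts of Sertad2 and none of the others, against 20.8% of all. CGGAAG was in 1 of 7, that of Ier5l, against 16.9%, and so was GAANNTTC, against 7.86%. The CArG box bound by SRF was in 0 of 7, against 1.63% of all. The AP-1 letters TGANTCA were also in 0 of 7 (7.81% of all), as were the letters TATAAA (13.6%), the E-box CACGTG (7.15%) and the TEAD letters CATTCC (14.7%). That says only that these exact letters are not in this window, and a TATA box of another spelling, as shortly before the Ier5 start, is not counted. The GC content ran from 54.0% at Ier3 to 72.3% at the second start of Sertad2, where the median of all starts was 52.7%. Motifs made of G and C, such as GGGCGG, can be more frequent in GC-rich sequence. Whether that had a part in the counts was not tested. The counts of repeated copies were chosen after the values were seen. The genes and motifs were chosen with earlier results of these data known, so nothing is read from these shares.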
